A study of Mus musculus with 9 samples.

Results

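The complement genes measured here are 7 of 9 listed by symbol: the component genes Cfb, C3 and Cfp, the C1q chain genes C1qb and C1qc, and the receptor genes C3ar1 and C5ar1. They were taken by name from a table of 12413 gene symbols in BV-2 cells, an immortalized line of mouse microglia, and the other listed genes, C1qa and Cd55, were not analysed here. The mRNA profiles came from 9 libraries in 3 groups of 3. The BHB group received lipopolysaccharide (LPS, a bacterial membrane component, 1 μg/mL) together with BHB, the ketone body β-hydroxybutyrate, as R-3-hydroxybutyric acid (1.5 mM). The Medium group received LPS without BHB, and the paper names PBS in place of BHB for such cells. The Control group was labelled PBS and received neither LPS nor BHB. All groups share 1 cell line, whose cells lack the tissue around microglia in spinal cord, and the sources used here do not give the duration of treatment for these libraries. The question was how complement transcripts moved when LPS was given and when BHB accompanied it.

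Complement is a cascade of plasma and tissue proteins that tags particles and cells for removal and releases small attractant peptides. C1q starts the classical pathway. C3 is the central protein that all pathways cleave. Factor B (Cfb) supplies the protease of the alternative pathway and properdin (Cfp) stabilizes that enzyme, so these genes form an amplification loop around C3. The fragments C3a and C5a act on cells through C3ar1 and C5ar1. In the brain, microglia are known as a main source of C1q and carry receptors for the fragments, and complement is known there for the tagging of synapses.

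Total counts were between 23411672 and 32767278 per library, and 10413 genes passed the low-count filter and were tested. Levels are given as CPM, counts as a share of the library total, brought to the usual CPM scale and adjusted by TMM factors between libraries. Of 13 markers of microglia and macrophages, 10 were at 1 CPM or more in every library, and Aif1, Tmem119 and P2ry12 were not. Tmem119 was between 0.267 and 0.42 CPM in Medium, and P2ry12, a receptor of resting microglia, was under 1 CPM in all 9 libraries. The summed level of the marker list ran from 3434.4 to 3679.1 CPM in BHB, from 2693.5 to 3478.8 CPM in Medium and from 3450.9 to 3653.1 CPM in Control. Cd68 had the highest level of the list in every library, and single markers moved in both directions. Csf1r was between 243.6 and 268.1 CPM in BHB, 42.1 and 44.7 CPM in Medium and 222.1 and 231.2 CPM in Control, and Trem2 between 124.4 and 133.6 CPM in BHB, 22.6 and 27.4 CPM in Medium and 226.4 and 256.3 CPM in Control. Adgre1 was between 337.6 and 387.0 CPM in BHB, 399.0 and 512.1 CPM in Medium and 191.4 and 221.8 CPM in Control. The part of these moves in the complement results was not tested. In bulk RNA such as this, fewer cells of a kind and less RNA per cell cannot be told apart. The marker lists of astrocytes and neurons (1 gene with a row each) and of endothelium and neutrophils (2 each) summed to under 1 CPM in every library, with Gfap at 0 in 6 libraries. Those of T and B cells and of hepatocytes were not analysed here. Of the oligodendrocyte markers, Mbp was between 1.01 and 4.28 CPM over all libraries and Olig2 was at 0 in 7 libraries. Within the Medium group, replicate 3 stood apart from the other libraries (chi-square per degree of freedom 33.3 and 29.5, against 4.34 between those), and the values of complement genes without it are given where they differ in call or size.

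Of the 5 complement genes that could be tested, 4 were higher with LPS, and of these 4, Cfb, C3 and C3ar1 were lower when BHB accompanied LPS. Cfp was called higher where BHB was present and not with LPS by itself. In Medium against Control the genes higher were Cfb, C3, C3ar1 and C5ar1, while Cfp was not called. Over all genes tested, 72.6% were called in this comparison and 36.3% were called higher, and the median log2 fold change was -0.00503, against 1.18 over the 5 complement genes. In BHB against Medium, Cfb, C3 and C3ar1 were lower, Cfp was higher and C5ar1 was not called, where 66.9% of all genes were called, 33.6% lower and 33.2% higher. The median over the 5 was -0.68. In BHB against Control, C3, C3ar1, C5ar1 and Cfp were higher and Cfb was not called, where 66.7% of all genes were called and 33.4% were higher. The libraries of the groups compared did not overlap for 4 of the 5 genes in each comparison, against 75.1% of all genes in Medium against Control, 68% in BHB against Medium and 75.3% in BHB against Control. Cfb passed the low-count filter only through the Medium libraries, so it had to differ there, and the counts and medians of the 5 genes are a description and not a test of complement genes as a group. Called changes of at least 2-fold were fewer. They held for Cfb, C3 and C3ar1 with LPS (background 18.7%), for Cfb, C3 and Cfp in BHB against Medium (background 12.7%), and for Cfp in BHB against Control (background 13.3%). Since the same Medium libraries enter the first 2 comparisons on opposite sides, the values of a gene in them are not independent.

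**Figure D1:**
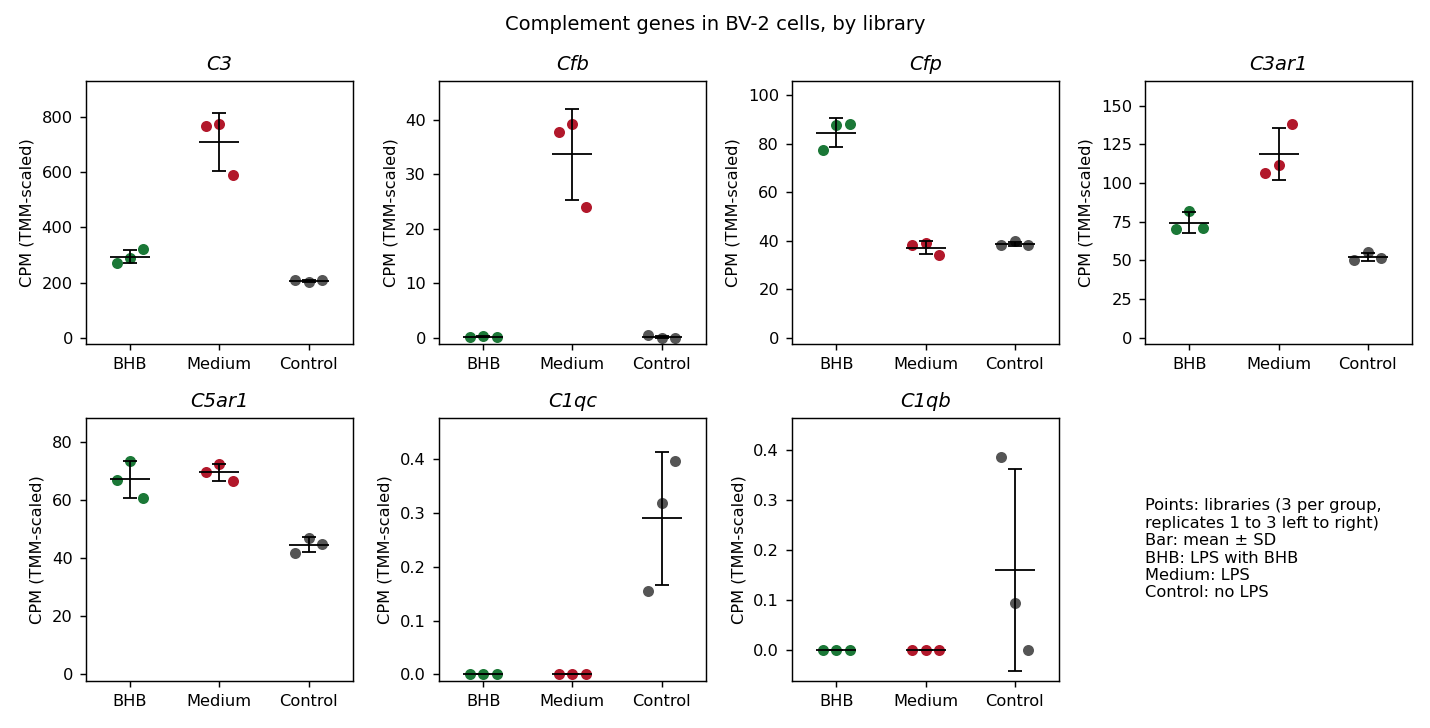
CPM after TMM scaling (vertical axis, linear, one scale per panel) for each of the 7 complement genes in the 3 BHB, 3 Medium and 3 Control libraries. Points are libraries, horizontal bars are means and whiskers are SD. Medium is highest for C3, Cfb and C3ar1, BHB is highest for Cfp, BHB and Medium overlap for C5ar1, and C1qc and C1qb have counts in Control libraries alone.

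C3 encodes the protein that every complement pathway cleaves, and it had the highest level per exon length of the 7 genes in each group. Its level was 273, 290 and 322 CPM in BHB, 767, 776 and 590 CPM in Medium, and 209, 203 and 208 CPM in Control, with no overlap between any of the groups. Medium replicate 3 was the lowest of its group and was still above every BHB library. The log2 fold change was 1.78 ± 0.0938 (SE) in Medium against Control, a 3.44-fold rise (adjusted p = 4.51e-10 by edgeR's quasi-likelihood fit). In BHB against Medium it was -1.27 ± 0.0923 (adjusted p = 2.81e-08 by edgeR), a 2.41-fold lower level. Some of the LPS rise was still present with BHB, since C3 was 1.43-fold higher in BHB than in Control (log2 0.51 ± 0.0919, adjusted p = 0.000197 by edgeR). Without Medium replicate 3 the Medium values were 1.90 and -1.39. In each comparison the exact permutation test over libraries gave p = 0.1 (2-sided), the smallest that 3 against 3 allow.

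C3 (ENSMUSG00000024164.15) lies on chromosome 17 of GRCm38 at 57203970 to 57228136 on the minus strand, with 42 exon blocks in GENCODE M21. The promoters of C3, C3ar1 and Cfp are shown because these genes represent the patterns seen: higher with LPS and lower with BHB for the first pair, and higher only where BHB was present for Cfp. The windows run from 250 bases before to 50 bases after the RefSeq start (GRCm38.p6), and 6 of the 7 genes had one. Each was searched on both strands for 6 motifs: κB as GGG and TTTCC with 2 bases between, C/EBP as TTGCNNAA, GAS as TTCNNNGAA, ISRE as GAAA repeated after 2 bases, PU.1 as GAGGAAGT and the TATA box as TATAAA, where the GAS letters read the same on both strands. Capitals mark the matches. Positions count from 1 at the first transcribed base.

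C3: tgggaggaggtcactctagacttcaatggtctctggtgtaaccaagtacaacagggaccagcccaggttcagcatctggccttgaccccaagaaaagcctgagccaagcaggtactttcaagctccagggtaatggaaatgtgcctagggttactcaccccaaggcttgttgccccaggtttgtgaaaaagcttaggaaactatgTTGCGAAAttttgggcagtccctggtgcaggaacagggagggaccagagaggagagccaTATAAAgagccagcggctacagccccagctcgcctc

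The C3 window (chr17:57228087-57228386, minus strand) held a C/EBP match, TTGCGAAA, at -45 to -38, a motif present in 10.8% of 32851 windows of this length, and a TATA box match at 15 to 20, present in 13.6%. It held no match to the κB letters, which occur in 1.63% of windows. GAS was found in 8.3%, ISRE in 3.44% and PU.1 in 3.2% of windows. The matches shown do not overlap one another. A match is a description of the letters and not evidence of a bound factor.

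Cfb encodes factor B, the protease zymogen of the alternative pathway, and had the largest LPS rise of these genes. Nearly all of its counts were in Medium: 4, 9 and 5 counts in BHB (0.14, 0.292 and 0.181 CPM), 1088, 935 and 630 counts in Medium (37.7, 39.3 and 24.0 CPM), and 11, 0 and 0 counts in Control. The Medium libraries did not overlap with those of the other groups, while BHB and Control did overlap each other. The log2 fold change was 7.97 ± 0.438 in Medium against Control (adjusted p = 7.35e-10 by edgeR) and -7.31 ± 0.407 in BHB against Medium (adjusted p = 1.82e-09 by edgeR), so the level in BHB was 159-fold lower. Cfb reached the minimum of the low-count filter in all 3 Medium libraries, in 1 Control library and in no BHB library. It was thus selected through the group where it is high, and the values against Medium are a description. BHB against Control gave 0.65 ± 0.968, with a 95% interval from -1.42 to 2.73 (adjusted p = 0.57 by edgeR), an interval too wide to show whether the low levels differ.

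All Control counts of Cfb came from replicate 1. With all libraries Cfb was 250-fold higher in Medium than in Control, and 1.57-fold higher in BHB than in Control, which was not called. Without replicate 1 the Control group is at 0, and BHB against Control was then called (adjusted p = 0.0112 by edgeR). Leaving out the only Control library with counts fixes that outcome, so this call is no support for a difference between BHB and Control. Such low counts need care, since in the whole table the value 1 occurs 335 times and the value 2 occurs 1675 times while 0 occurs 12323 times, and the sources used here do not say how low values were set. The lowest Medium library, replicate 3, took little from the difference, which was 8.16 with LPS and -7.51 for BHB against Medium without it.

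Cfb (ENSMUSG00000090231.10) occupies chromosome 17 at 34856374 to 34862518 on the minus strand. A longer gene model, Gm20547, covers 6107 bases of it on the same strand and shares 2246 of its 2825 exon bases, so reads there fit both models, and Gm20547 was not analysed here. C2, the classical pathway counterpart of Cfb, lies upstream on the same strand, with its end 85 bases from the start of Cfb. C2 shares 1656 of its 3872 exon bases with the same Gm20547 model, so its counts carry the same limit. It did not follow Cfb: C2 had 11, 19 and 24 counts in BHB, 29, 17 and 13 in Medium and 17, 44 and 28 in Control, overlapping in every comparison (adjusted p = 0.319, 0.631 and 0.142 by edgeR for Medium against Control, BHB against Medium and BHB against Control). In the other direction along the chromosome, Nelfe, a subunit gene of a transcription elongation regulator, ends 1 base away on the opposite strand and averaged 57.2 CPM in BHB, 59.6 CPM in Medium and 53.0 CPM in Control.

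Cfp encodes properdin, which stabilizes the enzyme that factor B forms with C3. It did not share the pattern of its partners. The level was 77.6, 87.7 and 88.3 CPM in BHB, 38.1, 39.2 and 34.2 CPM in Medium, and 38.2, 39.7 and 38.3 CPM in Control. Every BHB library lay above every other library, and Medium overlapped Control. Against Medium, Cfp in BHB was 2.28-fold higher (log2 1.19 ± 0.0724, adjusted p = 4.69e-09 by edgeR) and against Control 2.18-fold higher (1.13 ± 0.072, adjusted p = 7.35e-09 by edgeR). With LPS alone the log2 fold change was -0.06, with a 95% interval from -0.22 to 0.10 (adjusted p = 0.47 by edgeR). Scaling by library sizes alone changed that to -0.33 (adjusted p = 0.000507 by edgeR), where the median of all genes also shifted, to -0.273. Relative to that median the value was close to the one with TMM.

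Cfp (ENSMUSG00000001128.7) is on chromosome X at 20925454 to 20931555 on the minus strand. Its window (chrX:20931506-20931805, minus strand) had no match to any of the 6 motifs and is therefore in lower case throughout.

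Cfp: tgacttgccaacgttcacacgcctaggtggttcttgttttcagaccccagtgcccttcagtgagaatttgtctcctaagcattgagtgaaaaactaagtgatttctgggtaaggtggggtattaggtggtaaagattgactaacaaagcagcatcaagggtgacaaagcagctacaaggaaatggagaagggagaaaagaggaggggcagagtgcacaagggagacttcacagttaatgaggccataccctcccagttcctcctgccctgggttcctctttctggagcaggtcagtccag

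**Figure D2:**
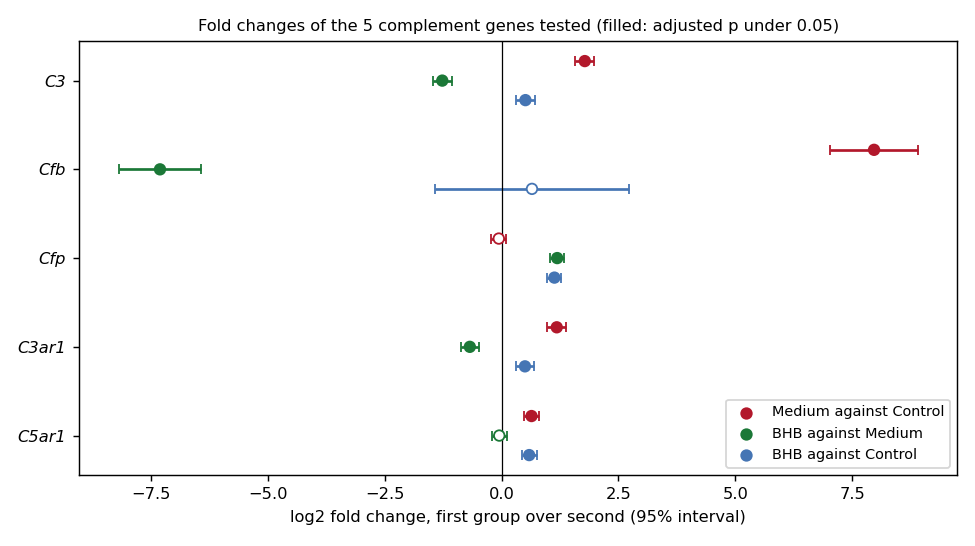
Log2 fold changes from edgeR (horizontal axis, first group over second) of the 5 tested complement genes in the 3 comparisons, with 95% intervals as whiskers. Filled points passed an adjusted p of 0.05. Cfb spans 7.97 with LPS and -7.31 for BHB against Medium, Cfp is at -0.06 and 1.19, and C5ar1 is at 0.64 and -0.05.

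The receptor genes C3ar1 and C5ar1, which encode G protein-coupled receptors for C3a and C5a, both rose with LPS and differed in what accompanied BHB. C3ar1 was at 70.1, 82.2 and 70.7 CPM in BHB, 107, 112 and 138 CPM in Medium, and 50.2, 55.2 and 51.8 CPM in Control. The 3 groups were fully separate. C3ar1 was 2.27-fold higher in Medium than in Control (log2 1.18 ± 0.0935, adjusted p = 3.95e-08 by edgeR) and 1.60-fold lower in BHB than in Medium (-0.68 ± 0.0918, adjusted p = 1.51e-05 by edgeR). It was 1.42-fold higher in BHB than in Control (adjusted p = 0.000257 by edgeR). Medium replicate 3, the lowest Medium library for C3 and Cfb, was the highest for C3ar1, and without it the values were 1.06 with LPS and -0.55 for BHB against Medium, both still called.

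C5ar1 was at 66.7, 73.5 and 60.8 CPM in BHB, 69.7, 72.4 and 66.5 CPM in Medium, and 41.8, 46.9 and 44.9 CPM in Control. The BHB and Medium libraries overlapped, and all of them lay above every Control library. The gene was 1.56-fold higher in Medium than in Control (log2 0.64 ± 0.076, adjusted p = 2.77e-06 by edgeR) and also higher in BHB than in Control (0.59 ± 0.0759, adjusted p = 8.79e-06 by edgeR). Between BHB and Medium the log2 fold change was -0.05, with a 95% interval from -0.21 to 0.11 (adjusted p = 0.55 by edgeR). A change as large as the 1.60-fold decrease of C3ar1 lies outside that interval.

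C3ar1 (ENSMUSG00000040552.8) is on chromosome 6 at 122847138 to 122856161 and C5ar1 (ENSMUSG00000049130.6) on chromosome 7 at 16246743 to 16259540, both on the minus strand, and no annotated gene overlaps either. The C3ar1 window (chr6:122856108-122856407, minus strand) held a κB match on the opposite strand, GGAAAGGCCC at -14 to -5, and TATAAA at -235 to -230. The windows of C5ar1 and C1qb had no match, and that of C1qc had 1, to PU.1.

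C3ar1: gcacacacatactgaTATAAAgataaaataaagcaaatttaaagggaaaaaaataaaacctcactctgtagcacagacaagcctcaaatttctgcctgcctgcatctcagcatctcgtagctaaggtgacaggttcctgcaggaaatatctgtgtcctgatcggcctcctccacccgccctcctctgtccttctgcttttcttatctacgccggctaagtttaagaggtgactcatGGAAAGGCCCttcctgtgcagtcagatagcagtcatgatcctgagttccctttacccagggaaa

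Ratios of a pair of genes within a library do not depend on the scaling between libraries. On the log2 scale and per exon length, C3ar1 over C5ar1 was -0.67, -0.58 and -0.53 in BHB, -0.13, -0.12 and 0.31 in Medium, and -0.48, -0.51 and -0.54 in Control. All 3 Medium libraries were above all others, so the balance of the receptor transcripts was nearest to equal under LPS alone. The difference was 0.53 for Medium against Control and -0.61 for BHB against Medium (2-sided exact permutation p = 0.1 both times, the smallest possible), and -0.08 for BHB against Control (exact p = 0.2), where the libraries overlapped. Without Medium replicate 3 the first pair of differences was 0.38 and -0.47. In all, 9 such differences of ratios were tested, and 0.1 is the smallest p any of them can give.

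C3 over C3ar1 was 1.70, 1.56 and 1.93 in BHB, 2.59, 2.54 and 1.84 in Medium and 1.80, 1.62 and 1.75 in Control. Medium replicate 3 fell among the BHB libraries, so the BHB and Medium groups overlapped. The difference was 0.60 for Medium against Control (exact permutation p = 0.1) and -0.59 for BHB against Medium (exact p = 0.2). Without that library they were 0.84 and -0.83. Between BHB and Control, C3 and its receptor gene kept nearly the same ratio, with a difference of 0.01 (exact p = 1).

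Cfb over C3 was between -3.75 and -3.44 in Medium, which makes C3 counts per exon length 11.8-fold those of Cfb there. The length used for Cfb is all 2825 exon bases, of which 2246 are shared with Gm20547. How reads in the shared bases were counted is not stated, so the Cfb level per exon length is uncertain. In BHB the ratio was between -9.89 and -9.01. In Control it was -8.01 in replicate 1 and -12.77 and -12.63 in the libraries with no Cfb count, where the prior count of 0.5 sets the value. The ratio thus moved by 7.58 with LPS and by -6.01 in BHB against Medium (exact permutation p = 0.1 for each). Cfb was selected by the low-count filter through Medium, where it is high. These moves are therefore a description and not a test of whether Cfb changed more than C3. With a prior count of 5 the moves were 5.21 and -5.21, so their size depends on the prior.

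**Figure D3:**
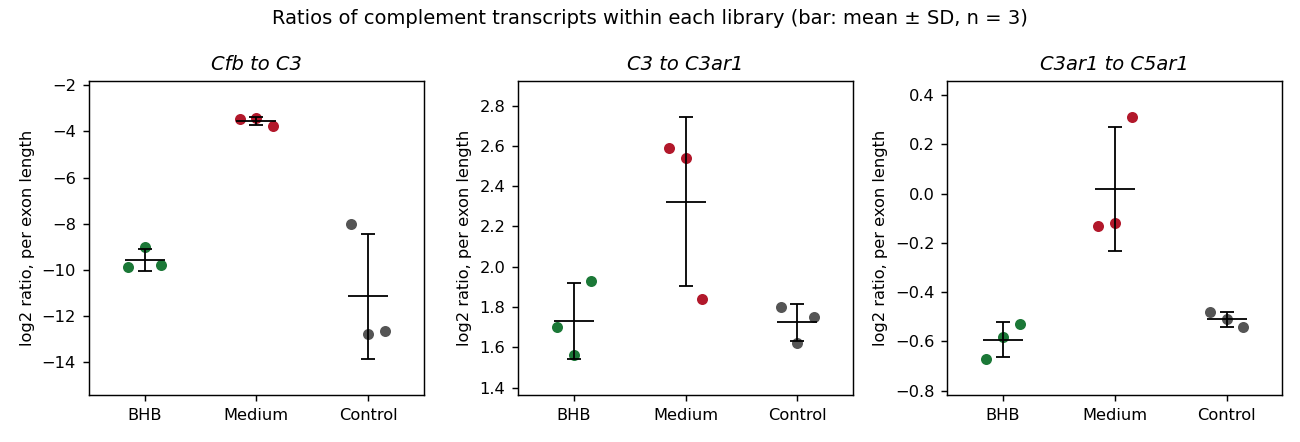
Log2 ratios per exon length (vertical axis, own scale in each panel) of Cfb to C3, C3 to C3ar1 and C3ar1 to C5ar1 in every library of BHB, Medium and Control, with mean and SD. The Medium libraries lie above the others for Cfb to C3 and C3ar1 to C5ar1, and Medium replicate 3 lies at 1.84 among the BHB libraries for C3 to C3ar1.

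Per exon length, the order of transcripts changed with treatment. In BHB, C3 led with 57.3 ± 4.81 CPM per kb (mean ± SD, n = 3), followed by Cfp with 48.7 ± 3.44, C5ar1 with 26.1 ± 2.48, C3ar1 with 17.3 ± 1.58 and Cfb with 0.0724 ± 0.0278. In Medium, C3 had 138 ± 20.4 CPM per kb, C3ar1 27.6 ± 3.94, C5ar1 27.0 ± 1.14, Cfp 21.4 ± 1.49 and Cfb 11.9 ± 2.96. The Cfb values and its place in the order carry the limit of the exon bases shared with Gm20547. In Control, C3 had 40.2 ± 0.598 CPM per kb, Cfp 22.3 ± 0.503, C5ar1 17.3 ± 1.01 and C3ar1 12.2 ± 0.583. Cfp ranked 2 in BHB and Control and 4 in Medium, where C3ar1 and C5ar1 overlapped. Other neighbours in the order did not overlap, down to Cfb in BHB and Medium and down to C3ar1 in Control, while Cfb, C1qb and C1qc overlapped one another at the bottom of Control.

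C1qb and C1qc encode chains of C1q, the recognition protein of the classical pathway, and were at the limit of detection. C1qc had 0 counts in all 3 BHB and all 3 Medium libraries, against 4, 10 and 11 counts in Control. C1qb had 0 counts in the same 6 libraries, against 10, 3 and 0 counts in Control. Neither passed the low-count filter. Against a floor of 3 counts over a group (0.0344 CPM in BHB and 0.0346 CPM in Medium), the 25 Control counts of C1qc make it at least 9.39-fold lower in BHB and at least 9.34-fold lower in Medium. The 13 counts of C1qb make it at least 4.88-fold lower in BHB and at least 4.86-fold lower in Medium. These bounds cover the counting error of the group at 0 alone and leave out the spread between libraries.

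For C1qc the groups did not overlap (exact permutation test, p = 0.1), and for C1qb they did (exact p = 0.4). Fitted without a low-count filter, C1qc was called in Medium against Control and in BHB against Control (adjusted p = 0.0127 and 0.0118 by edgeR), and C1qb was not (adjusted p = 0.0787 and 0.0751 by edgeR). DESeq2 also called C1qc in both. The mean level in Control was 0.29 CPM for C1qc and 0.161 CPM for C1qb, so both chains were near the detection limit in these cells even without LPS, and BHB against Medium gives no comparison. C1qb (ENSMUSG00000036905.8) and C1qc (ENSMUSG00000036896.5) neighbour each other on chromosome 4, at 136880129 to 136886187 and 136889804 to 136893065 on the minus strand.

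The genes nearest to each complement gene, searched where mean log2 CPM was 3 or more, were found by the root-mean-square difference of mean-centred log2 CPM over the 9 libraries. C3 was nearest to Piezo1, a mechanically gated channel gene, Bst2, the interferon-induced tetherin gene, and Fzd5, a Wnt receptor gene, with differences of 0.0939, 0.103 and 0.109. Cfb was nearest to the collagenase gene Mmp13 and the chemokine genes Ccl5 and Cxcl10, at larger differences of 0.938, 1.01 and 1.28. C3ar1 was nearest to Angptl6, Gtpbp2 and Itgb7 (0.0923, 0.104 and 0.11) and C5ar1 to Ints11, Slc8b1 and Med24 (0.0647, 0.0653 and 0.0656). Cfp was nearest to the proteoglycan gene Sdc4, to Bsg, which encodes basigin, a chaperone of lactate transporters, and to the glycolytic enzyme gene Pgam1 (0.0817, 0.0958 and 0.101). None of C3, C3ar1, C5ar1 and Cfp appeared among the nearest genes of another complement gene. Cfb, C1qb and C1qc were not among the genes searched, so they could not appear.

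The other genes of the pathway were taken from a list by role, of which 26 of 51 had a row and 18 could be tested. In Medium against Control, 5 were higher, 8 lower and 5 not called, with a median log2 fold change of -0.22. In BHB against Medium, 8 were higher, 4 lower and 6 not called, with a median of 0.48. In BHB against Control, 7 were higher, 6 lower and 5 not called, with a median of 0.10. The called shares, 13, 12 and 13 of 18, are near the backgrounds of 72.6%, 66.9% and 66.7%, so the list as a whole did not stand out in how many genes were called. The 8 genes under the filter, Masp2, Fcnb, Colec11, Serping1, Vtn, Csmd1 and Susd4 among them, each had at most 15 counts in a group. The terminal components other than C8g and C9 were not analysed here.

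Among the soluble regulators, Clu, which encodes clusterin, an inhibitor of the membrane attack complex, was at 437, 461 and 429 CPM in BHB, 633, 620 and 401 CPM in Medium and 86.9, 75.8 and 79.0 CPM in Control. Every LPS-treated library was above every Control library, and BHB and Medium overlapped through Medium replicate 3. The log2 fold change was 2.78 ± 0.136 with LPS (adjusted p = 2.16e-10 by edgeR) and 2.46 ± 0.134 in BHB against Control (adjusted p = 1.5e-09 by edgeR). BHB against Medium gave -0.32 ± 0.126 (adjusted p = 0.0362 by edgeR), a call lost in 9 of 17 alternatives, among them those without any 1 of the BHB libraries and without Medium replicate 1 or 2 (-0.35 to -0.21). Without Medium replicate 3 it was -0.51 (adjusted p = 4.68e-08 by edgeR). Cpn1, a subunit gene of the carboxypeptidase that trims C3a and C5a, had 73, 52 and 60 counts in BHB, against 7, 0 and 7 in Medium and 7, 0 and 0 in Control. Against Medium, the level in BHB was 11.9-fold higher (log2 3.57 ± 0.662, adjusted p = 0.00026 by edgeR), and stood at 2.14 ± 0.439 CPM. Cpn1 passed the low-count filter only through the BHB libraries, so it had to differ there, and the values are a description.

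Among receptors, Itgax, the CD11c chain of complement receptor 4, was 5.88-fold lower in Medium than in Control (log2 -2.56 ± 0.117, adjusted p = 1.13e-10 by edgeR). Against Medium, it was 2.65-fold higher in BHB (1.41 ± 0.115, adjusted p = 9.63e-08 by edgeR) and it was still 2.22-fold lower in BHB than in Control. Itgam, the CD11b chain of complement receptor 3, was not called with LPS (-0.10) and with BHB was 1.49-fold higher than in Medium (0.57 ± 0.0699, adjusted p = 5.14e-06 by edgeR). Reads of Itgam can also fit Gm49368, an overlapping model on the same strand that shares 3450 exon bases with it. Itgb2, which encodes the β chain that both receptors share, was 1.57-fold higher with BHB than with LPS alone. C5ar2, the second C5a receptor, did not follow C5ar1: it was 3.22-fold lower in Medium than in Control (-1.69 ± 0.303, adjusted p = 0.000159 by edgeR) and 2.94-fold lower in BHB than in Control. Its log2 fold change for BHB against Medium was 0.13, and 0.58 without Medium replicate 3, not called either time (adjusted p = 0.735 and 0.1 by edgeR). Calr, which encodes calreticulin, a chaperone that can bind C1q, was 2.31-fold higher with LPS (log2 1.21) and 1.51-fold lower in BHB than in Medium (-0.59), and without Medium replicate 3, its lowest Medium library, these were 1.38 and -0.76.

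Among the components, C4b was 3.29-fold lower in Medium than in Control (log2 -1.72 ± 0.28, adjusted p = 6.37e-05 by edgeR), at 113 counts over the Medium libraries and 405 over the Control libraries. C4a, its near-identical neighbour, changed by 0.82 on the log2 scale (adjusted p = 0.0396 by edgeR, not called in 11 of 17 alternatives). How reads were split between them is not stated. Fcna, the gene of the lectin ficolin A, was 2.27-fold lower with LPS and 2.17-fold higher with BHB than with LPS alone, and BHB and Control overlapped (-0.06, 95% interval from -0.30 to 0.18). Colec12, a membrane collectin that acts as a scavenger receptor, was 2.46-fold lower with LPS and 1.61-fold higher in BHB than in Medium. C8g was 2.02-fold lower with LPS and 2.34-fold higher in BHB than in Medium, at 160 counts in BHB, 61 in Medium and 133 in Control. The LPS call of C8g was lost without Medium replicate 1 or 3 (log2 -0.83 and -0.77) and without Control replicate 1 or 3 (-0.87 and -0.91). C9, a pore-forming terminal component, had 86 counts over the BHB libraries, 35 over the Medium libraries and 4 over the Control libraries, and 23 of the Medium counts were in replicate 3. Its log2 fold change was 3.11 with LPS (adjusted p = 0.0125 by edgeR) and 1.16 for BHB against Medium (adjusted p = 0.105 by edgeR). C9 reached the minimum of the low-count filter in all 3 BHB libraries, in Medium replicate 3 and in no Control library, so it was selected through the group where it is high. Without Medium replicate 3 the values were 2.16 with LPS (adjusted p = 0.0847 by edgeR) and 2.11 for BHB against Medium (adjusted p = 0.0109 by edgeR), where the second rests on that selection. The LPS call was also lost without Control replicate 2 (adjusted p = 0.0534 by edgeR). Of the membrane regulators, Cd46 had 2.09 ± 0.133 CPM in BHB, 3.54 ± 0.552 CPM in Medium and 4.99 ± 0.766 CPM in Control. It was lower in BHB than in Medium (log2 -0.77, adjusted p = 0.00423 by edgeR) and lower in Medium than in Control (-0.49, adjusted p = 0.031 by edgeR), the call with LPS being lost without Control replicate 1 or 2 and without Medium replicate 1 or 2 (-0.50 to -0.39). A transcript on the opposite strand, A330023F24Rik, shares 1079 of the 7603 exon bases of Cd46, and its part in these counts was not tested. Cr1l, the mouse gene of the C3 convertase regulator Crry, was at 27.7 CPM in BHB, 27.7 CPM in Medium and 27.8 CPM in Control, and the 95% intervals of its log2 fold changes lay between -0.18 and 0.17. With scaling by library sizes alone, Cr1l was called lower with LPS (-0.27), the shift of the median of all genes under that scaling.

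**Figure D4:**
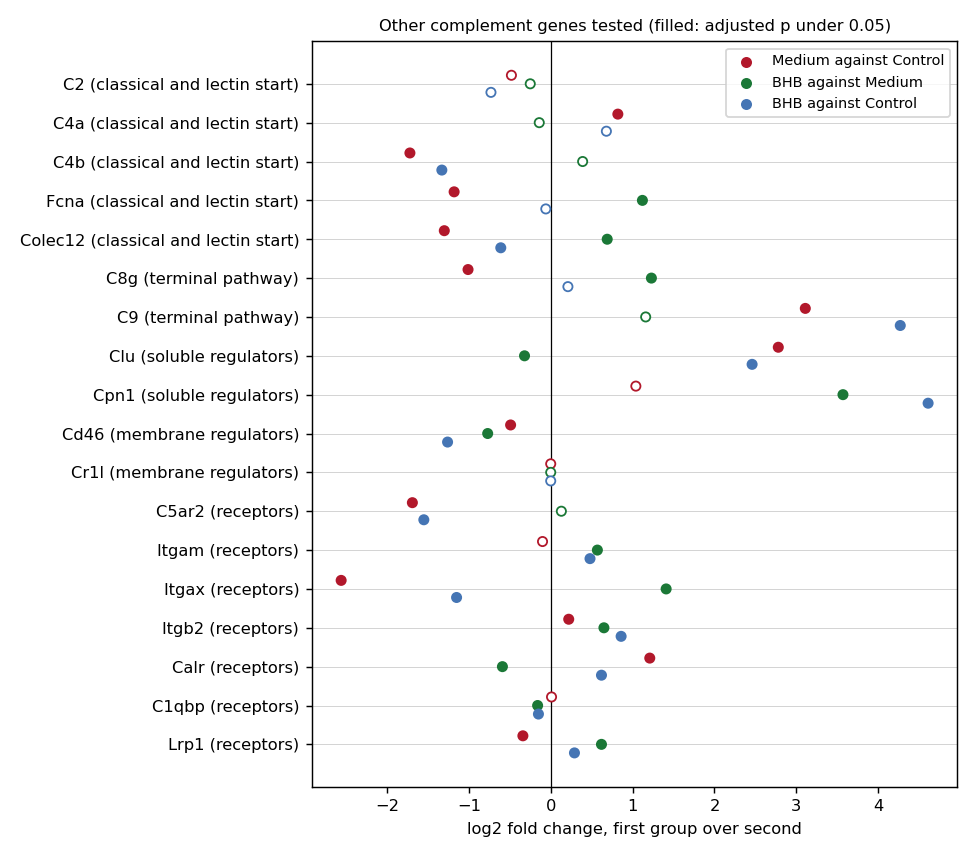
Log2 fold changes from edgeR (horizontal axis, first group over second) of the 18 other complement genes tested, by role, in the 3 comparisons. Filled points passed an adjusted p of 0.05. Clu stays at 2.78 and 2.46 in both comparisons with Control, Itgax is at -2.56 with LPS and 1.41 for BHB against Medium, and Cr1l lies at 0 in all 3.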

How the data were processed

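The authors deposited whole-number counts per gene symbol for 9 BV-2 libraries, neither normalized nor pooled. The methods name Skewer, FastQC, STAR on GRCm38 in strand-specific mode and StringTie. HISAT2, StringTie, Trimmomatic and FastQC 0.11.5 stand in the submitters' processing notes. Neither source gives the counting step. Groups and replicates came from the sample titles. Doses came from the methods. The gene list and the wider list were chosen with earlier results of these data known.

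From the counts, genes were kept by filterByExpr over the 3 groups, scaled by TMM and tested with edgeR 4.0.16 (R 4.3.3) (glmQLFit, glmQLFTest). All 9 libraries entered a single fit, p-values were adjusted over 10413 genes by Benjamini-Hochberg, and calls were made at 0.05. A standard error was the log2 fold change over the square root of F, and the code was tested on simulated data. Ratios used counts with a prior of 0.5 over the exon length in GENCODE M21. Levels were set against totals of 23411672 to 32767278 counts. The libraries are labelled as separate samples, and p-values measure the spread between them. Named were all members, every wider-list gene with a called change of at least 2-fold in any comparison, and the 3 nearest patterns of each member. C2, Nelfe, C4a, Itgam, Itgb2 and Cr1l were named outside this rule after their values were seen. Promoters came from RefSeq GRCm38.p6. Alternatives were DESeq2 1.42.0, voom of limma 3.58.1, other scalings, filters, thresholds and sample sets, and the replicate number as a block. The planned ratios of C1qb and C1qc to C1qa could not be computed, since C1qa was not analysed here. Certain genes of the marker and wider lists are not reported here.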

Additional observations from a re-analysis of the deposited data

How the results depend on the processing

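The calls of Cfb, C3, C3ar1 and C5ar1 with LPS, of Cfb, C3, C3ar1 and Cfp in BHB against Medium, and of C3, C3ar1, C5ar1 and Cfp in BHB against Control held with DESeq2, limma-voom, other scalings, other filters (Cfb was not tested where 10 counts were required in each library), fits of only the groups compared, the replicate block and without each library in turn. Cfb was selected by the low-count filter through Medium, where it is high, so its calls remain a description. Requiring at least 2-fold as well left 3 complement genes with LPS, 3 in BHB against Medium and 1 in BHB against Control. Of the 18 wider-list genes it left 9, 4 and 7 in the same order. Over all genes tested, the shares were 18.7%, 12.7% and 13.3%. A test against a 2-fold change left 2 complement genes with LPS, 3 in BHB against Medium and 0 in BHB against Control. In that last comparison, 4 were called at an adjusted p under 0.05, beside 66.7% of all genes. Of the wider list, the test against a 2-fold change left 5, 2 and 3 genes in the same order. The share of all genes that passed it was not counted, so these numbers are a description.

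No pairing by replicate number was detected. Deviations of same-numbered libraries correlated between -0.071 and 0.0632, and those of differently numbered libraries between -0.0823 and 0.0548. With 3 libraries per group this cannot show that the libraries were not handled in matched sets. With the replicate block, 7488, 6884 and 6864 genes were called with LPS, in BHB against Medium and in BHB against Control, against 7561, 6964 and 6948, and no call of the 5 genes Cfb, C3, Cfp, C3ar1 and C5ar1 changed. In the wider list, C4a with LPS was no longer called under the block (adjusted p = 0.054 by edgeR). The call of Cfp with LPS depended on the scaling and that of Cfb in BHB against Control on Control replicate 1. The depth limits C1qb, C1qc and Cfb outside Medium.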
